A study of Homo sapiens with 2 samples.

Results

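The genes described here lie side by side on the proximal part of the long arm of chromosome 4, from CEP135 to PDHA2, a stretch of 39.9 Mb in GENCODE release 29. They were taken from the deposited table by the genome position of their Ensembl identifiers, and 155 of the 20985 genes in the table qualified as members. A further 32 genes of the stretch, among them the CXCL chemokines, the UGT and SULT enzymes, the SLC carriers, EREG and IGFBP7, were left out by the rule. The stretch was chosen by the ratio of the resistant to the parental RNA level of its genes, which was above that of other genes. Every such ratio given for the members therefore describes the values that chose them and tests nothing.

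The data compare HCC827, an established lung adenocarcinoma line with an activating EGFR mutation, with its derivative HCC827 ZDR3. The derivative came from cells kept in the EGFR kinase inhibitor gefitinib, first at 10 nM for 1 month and then 3-fold more each month up to 1 µM, after which 3 colonies were picked. The labels do not say whether the drug was present at harvest or how the colonies relate to ZDR3. Polyadenylated RNA of each line was sequenced once, so the groups hold 1 library each, no difference has a replicate check and no p-value is given. DNA copy number was not analysed here.

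The gene reads numbered 257192597 in the parental library and 243549866 in that of ZDR3. Levels are normalised reads, with 1 unit worth 143 parental or 138 resistant reads. Where 2 levels or read counts of a gene are given, the parental one stands first and the resistant one second. Levels are not divided by gene length, so levels of different genes are compared only per kb of exon. The log2 ratio divides the resistant by the parental level, each with 1 unit added, which pulls the ratios of low genes towards 0. Ratios given as times or fold are plain ratios without the added unit, with an exact 95% counting interval that covers counting error only. Of 8 lung epithelial markers 7 reached a level of 1 in each library. The summed level of the 8, mostly that of KRT8 and KRT18, was 11613 and 3636. All 7 were lower in the resistant library. Their log2 ratios ran from -1.43 in KRT8 to -3.06 in EPCAM, -3.11 in CDH1 and -3.22 in NKX2-1. SFTPB, which encodes surfactant protein B, was below 1 in both. The leukocyte markers PTPRC and CD3E, the fibroblast markers COL3A1, PDGFRB, COL1A2 and DCN, and the endothelial markers KDR, VWF and CDH5 were below 1 in both libraries. The summed level was 157 and 320 for the 5 leukocyte markers, nearly all of it CD68, 9.51 and 1.87 for the 5 fibroblast markers, and 0.462 and 0.0945 for the 3 endothelial markers found. The part of these marker differences in the values below was not tested. In cultures measured as a whole, a change in the share of cells and a change in RNA per cell cannot be told apart.

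As background, a gain or loss of a chromosome segment reaches all genes in it, and neighbours often share chromatin state and time of replication, while most genes keep a promoter of their own. This stretch mixes genes that nearly every cell uses with clusters used by few tissues. The clusters hold the caseins and saliva proteins, the albumin family, the TMPRSS11 proteases and the mineral matrix proteins of bone and teeth. The housekeeping genes include subunits of RNA polymerase and of vesicle coats, enzymes of purine synthesis and proteins of the mitochondrial ribosome.

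Some neighbours in the stretch are read in opposite directions from starts that lie back to back. Shown are the 165 bases between the RefSeq starts of SEC31A and THAP9 (GRCh38.p14, chr4:82900570-82900734) and the 174 bases between those of HELQ and MRPS18C (chr4:83455884-83456057). They were chosen by distance: among pairs of expressed members matched to RefSeq, only these had a gap of up to 250 bases between starts. The 250 bases before the starts of SPP1 (chr4:87975464-87975713), FGF5 (chr4:80266338-80266587) and TMPRSS11E (chr4:68447213-68447462) are also shown. Among the expressed members these genes had the 2 highest log2 ratios and the lowest one. All are written from 5′ to 3′ on the plus strand, and capitals mark CG dinucleotides.
SEC31A/THAP9: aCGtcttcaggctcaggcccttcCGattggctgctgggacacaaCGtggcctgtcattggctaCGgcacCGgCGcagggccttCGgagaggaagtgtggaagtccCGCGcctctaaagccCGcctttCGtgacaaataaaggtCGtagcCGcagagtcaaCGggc
HELQ/MRPS18C: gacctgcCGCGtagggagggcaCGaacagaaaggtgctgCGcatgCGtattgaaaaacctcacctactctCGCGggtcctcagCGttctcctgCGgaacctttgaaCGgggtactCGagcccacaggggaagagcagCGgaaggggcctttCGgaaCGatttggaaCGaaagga
SPP1: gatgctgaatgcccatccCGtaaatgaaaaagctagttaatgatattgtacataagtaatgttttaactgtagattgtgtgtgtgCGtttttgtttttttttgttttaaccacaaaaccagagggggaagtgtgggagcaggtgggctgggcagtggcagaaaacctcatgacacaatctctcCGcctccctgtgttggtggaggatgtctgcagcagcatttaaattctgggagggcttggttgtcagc
FGF5: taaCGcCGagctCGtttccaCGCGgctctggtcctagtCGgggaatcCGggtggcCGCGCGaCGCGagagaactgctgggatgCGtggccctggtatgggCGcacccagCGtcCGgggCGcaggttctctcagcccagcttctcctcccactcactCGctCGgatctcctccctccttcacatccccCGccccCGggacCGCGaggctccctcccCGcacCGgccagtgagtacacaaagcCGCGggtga
TMPRSS11E: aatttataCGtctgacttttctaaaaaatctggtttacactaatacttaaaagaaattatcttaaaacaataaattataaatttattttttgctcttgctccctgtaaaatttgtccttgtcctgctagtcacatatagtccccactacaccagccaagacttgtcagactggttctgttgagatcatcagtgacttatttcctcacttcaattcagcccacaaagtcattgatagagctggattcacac
The stretch between SEC31A and THAP9 held 14 CG dinucleotides and that between HELQ and MRPS18C 15. The 250 bases before FGF5 held 27, those before SPP1 3 and those before TMPRSS11E 1. The members with the 2 highest log2 ratios thus had starts of opposite kinds, one rich and one poor in CG.

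Of the 155 members, 98 reached a level of 1 in either library, beside 13777 of all 20985 genes. Such genes are called expressed. This filter admits a gene through its higher library: 85 members reached it in both, 11 in the resistant library only and 2 in the parental library only. In the expressed members the log2 ratio had a median of 0.92 and quartiles of 0.55 and 1.40, and 90 of 98 were above 0. The share above 0 among all 13777 expressed genes was 47.8%, with a median of -0.03 and quartiles of -0.43 and 0.40. The median of the members was thus shifted upwards, while the distance between the quartiles was 0.85 for the members and 0.83 for all expressed genes. This likeness in spread did not hold at each level. At a mean level of 10 to 100 over both libraries the distance was 1.06 for the members and 0.76 for all. Under 10 it was 0.58 and 1.18, and over 100 it was 0.63 and 0.70. At least 2-fold higher were 43 members, or 43.9%, against 10.6% of all expressed genes, and at least 4-fold higher were 11 members against 3.50% of all. At least 2-fold lower were 2 members against 9.68% of all. Of the 73 members with a mean of at least 1000 reads, 34 were at least 2-fold higher beside 8.64% of all genes read this deeply, and 70 were above 0 beside 46.8%. These shares follow from how the stretch was chosen.

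**Figure D1:**
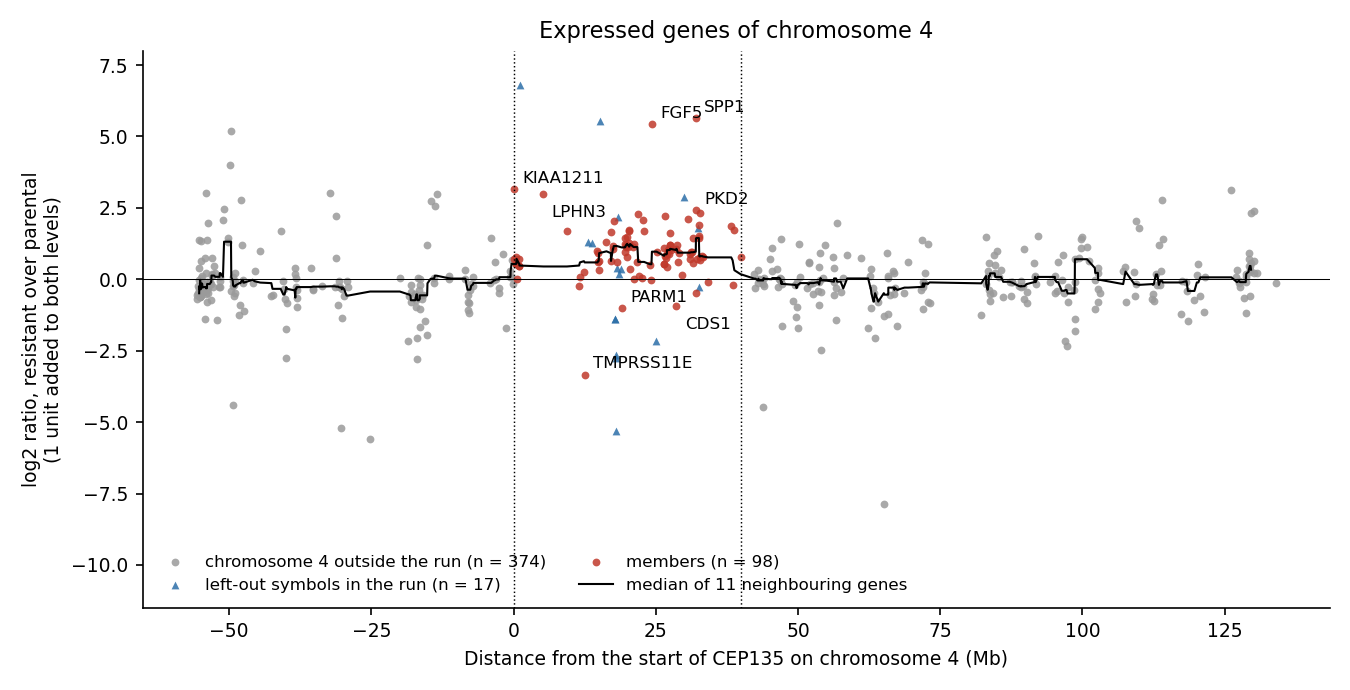
The log2 ratio of resistant over parental (vertical axis) of each expressed gene of chromosome 4 is plotted against the distance of its start from that of CEP135 in Mb. Red points are the 98 expressed members, blue triangles the 17 expressed genes left out by the rule, grey points the 374 genes outside the stretch; dotted lines stand at CEP135 and PDHA2, and the black line is the median of 11 neighbouring genes without the left-out ones, which stays above 0 from one dotted line to the other.

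Outside the stretch, chromosome 4 did not show this shift. The 166 expressed genes before CEP135 had a median log2 ratio of -0.23 and the 208 after PDHA2 one of -0.08. At the edge near CEP135, the 8 expressed genes just outside ran from LNX1 to EXOC1 and had a median of 0.08, with EXOC1, a subunit of the exocyst, at 73.9 and 65.8 (-0.16). The 8 expressed members just inside had a median of 0.54. The first of them, CEP135, which encodes a centriole protein, was at 2.37 and 4.56 (0.72), and SRP72, a subunit of the signal recognition particle, at 183 and 184 (0.005). At the other edge, the 8 expressed members up to PDHA2 had a median of 0.78 and the 8 expressed genes after it one of -0.08. PDHA2, the testis form of a pyruvate dehydrogenase subunit, had 54 and 185 reads (0.77), while RAP1GDS1, the next expressed gene outside, was at 104 and 118 (0.18).

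**Figure D2:**
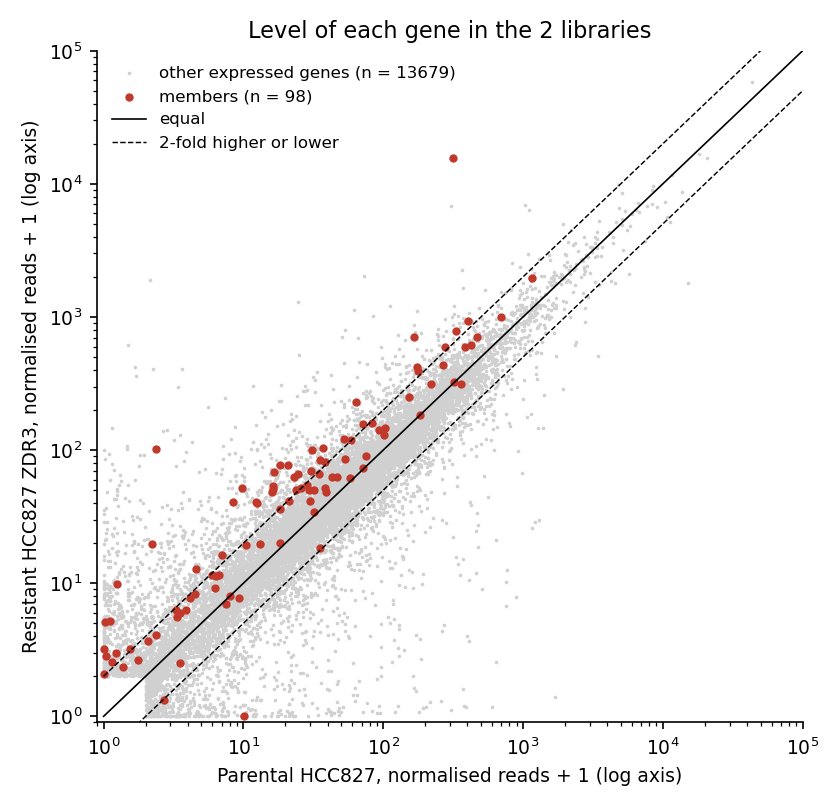
Each point is an expressed gene, with its level in the parental library (horizontal, normalised reads + 1, log axis) and in the resistant library (vertical, same scale); red points are the 98 members and grey points the other 13679 genes. Of the red points 90 lie above the line of equal levels, and 43 of these are on or above the upper dashed line of 2-fold, with SPP1 far above them at 15762 on the vertical axis.

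The ratios varied along the stretch. The first 33 expressed members, from CEP135 to USO1, had a median of 0.72, the next 32, from NAAA to HELQ, 0.99, and the last 33, from MRPS18C to PDHA2, 0.95. The difference was plainest among members with a mean level of 10 to 100, where the 15 in the first group had a median of 0.63, the 15 in the next 1.21 and the 13 in the last 1.21. In that band 3 of 15, 11 of 15 and 9 of 13 were at least 2-fold higher, beside 8.72% of all expressed genes at this level. Among members with a mean level over 100 the medians were 0.64, 0.61 and 1.40 over 7, 11 and 6 genes, with 9 of the 24 at least 2-fold higher beside 7.53% of all such genes. Below 10 they were 1.16, 0.85 and 0.78 over 11, 6 and 14 genes, and 11 of the 31 were at least 2-fold higher beside 17.4%. The order of the groups therefore depended on the level, and no test was possible.

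**Figure D3:**
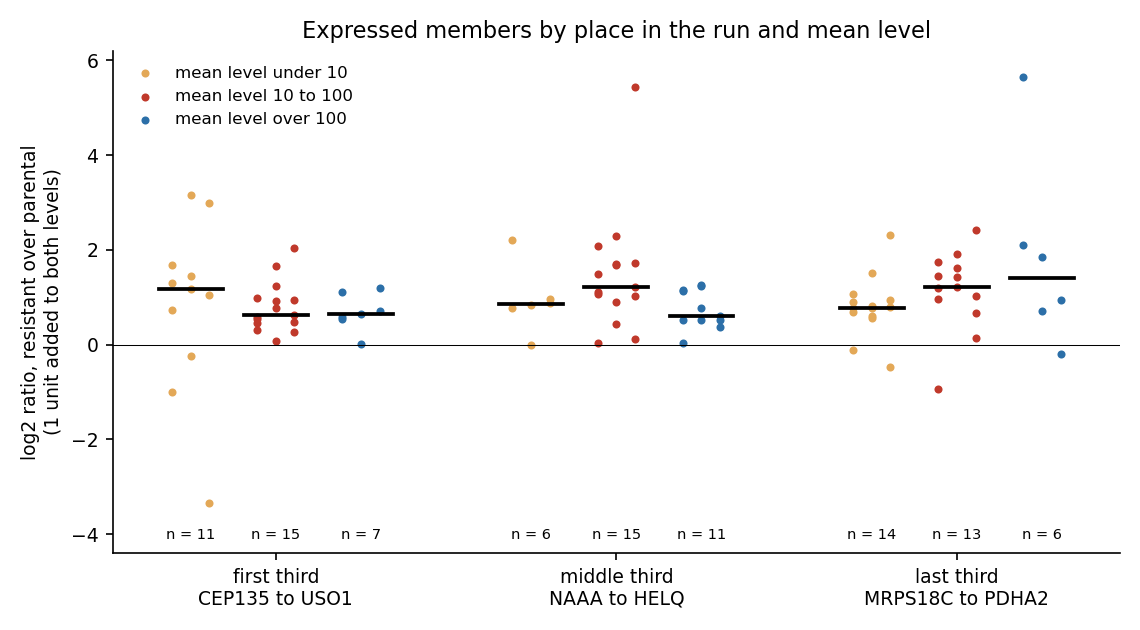
The log2 ratio (vertical axis) of the 98 expressed members is shown in 3 groups by their order along the chromosome, each split by mean level over both libraries in normalised reads; points are genes and black bars medians. In the band of 10 to 100 the bars stand at 0.63, 1.21 and 1.21.

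SPP1 encodes osteopontin, a secreted phosphoprotein that binds integrins and CD44. SPP1 (ENSG00000118785) was at 313 and 15762, and its log2 ratio was 5.65. The plain ratio was 50.3, with an interval of 49.8 to 50.8. Per kb of exon its level in the parental library, 135, stood close to those of SEC31A (126) and HNRNPD (98.9), while in the resistant library it was 6791 and theirs were 214 and 142. The members of its own gene cluster did not share this level. IBSP, bone sialoprotein, had 11 and 65 reads, MEPE 18 and 37, DSPP had 2 and 0, and DMP1 had 0 reads in both libraries. PKD2, the polycystin-2 channel of primary cilia and the next member after SPP1, was at 8.73 and 50.8 (2.41). SPARCL1, a matrix protein on the other side of the cluster, was at 5.24 and 8.19 (0.56). Of the 9 mineral matrix and related genes, 2 were expressed.

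FGF5 (ENSG00000138675), a fibroblast growth factor known for ending hair growth, was the member with the second-highest log2 ratio, 5.43. It had 198 and 14009 reads, a plain ratio of 73.5 (63.8 to 84.9). Its neighbour PRDM8, a transcriptional regulator, was at 7.06 and 6.98 (-0.01), and ANTXR2, an anthrax toxin receptor that binds collagen, at 103 and 147 (0.51). C4orf22, which follows FGF5 and overlaps it on the same strand, had 0 and 68 reads. Against a floor of 3 reads, set for a library with 0 reads, that is 23.5-fold higher, with a counting interval from 18.6. The large FGF5 difference was thus not shared by PRDM8.

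Genes with few parental reads had other large ratios. KIAA1211 was at 1.21 and 18.8 (3.16). LPHN3, an adhesion receptor of synapses now named ADGRL3, had 36 and 1223 reads, a ratio of 35.3 (25.3 to 50.6). TMEM150C had 17 and 574 reads (2.21). NAP1L5 had 4 and 566 reads, so its ratio of 147 has an interval of 57.1 to 541. It lies within HERC3 on the other strand, and without known strand in the counting the reads of such overlapping genes cannot be told apart. EPHA5, an ephrin receptor, had 0 and 306 reads. That is 106-fold higher against the floor of 3 reads, with a counting interval from 85.6.

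The list of kinases, phosphatases and GTPase regulators had the highest median among the lists with more than 2 expressed members. It also holds the growth factor FGF5, which is none of these and had the highest log2 ratio of the list (5.43). Of 12 members 10 were expressed, 7 of them 2-fold higher or more and 0 as much lower. EPHA5 and the kinase CDKL2, counted among the higher ones, passed the minimum only through the resistant library. The median was 1.70, and 1.72 with EPHA5 set at its ratio against the floor. Beside the counts of this and each list below, 10.6% of all expressed genes were at least 2-fold higher and 9.68% as much lower. Among the expressed members, chosen for their ratios, these shares were 43.9% and 2.04%. PTPN13, a large protein tyrosine phosphatase, was at 164 and 706 (2.10), a ratio of 4.30 (4.24 to 4.37) based on 23445 and 97183 reads. RASSF6, a protein with a Ras-association domain, was at 15.6 and 67.1 (2.03), and BMPR1B, a type I receptor for bone morphogenetic proteins, at 15.2 and 53.2 (1.74). All of these were plainly higher in the resistant library. ARHGAP24, a GTPase-activating protein, stood at 17.2 and 19.1 (0.15), the lowest of the 10.

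Secretory and endolysosomal genes had a median of 1.16 over 8 members, of which 5 were 2-fold higher or more and 0 as much lower. BMP2K, a kinase linked to clathrin-mediated uptake, was at 17.3 and 76.4 (2.08). It overlaps PAQR3 on the opposite strand, and reads from the overlap cannot be told apart without strand. STBD1, which binds glycogen, was at 11.4 and 39.6 (1.72), and SCARB2, a lysosomal membrane protein, at 173 and 417 (1.26). The autophagy adaptor WDFY3 was at 51.1 and 119 (1.21). SEC31A, of the COPII vesicle coat, was the most abundant of these genes per kb, at 126 and 214, with a log2 ratio of 0.76, while SRP72 did not share the shift.

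Mitochondrial proteins had a median of 1.07 over 7 members, with 4 2-fold higher or more and 0 as much lower. MRPL1, of the large mitochondrial ribosomal subunit, was at 7.36 and 39.9 (2.29). COX18, which helps insert a cytochrome oxidase subunit into the inner membrane, was at 15.3 and 50.3 (1.65). MRPS18C, of the small mitochondrial ribosomal subunit, had a log2 ratio of 1.20 and COQ2, an enzyme of coenzyme Q synthesis, one of 1.07. The resistant level was the higher one in 7 of 7, beside 91.8% of all expressed members.

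RNA-binding and ribosome assembly genes were higher in 8 of 8 members by sign, beside 91.8% of all expressed members. Their median was 0.79, and 3 were at least 2-fold higher. SDAD1, needed for export of the large ribosomal subunit, was at 36.0 and 102 (1.48). G3BP2, a stress granule protein, was at 403 and 927 (1.20), and NUP54, of the nuclear pore, at 70.5 and 157 (1.15). The abundant HNRNPD (0.52) and GRSF1 (0.59) had smaller ratios of 1.44 and 1.51. HNRPDL, now HNRNPDL, a paralog of HNRNPD, had nearly the same log2 ratio (0.53), though close copies can share reads.

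Transcription and chromatin genes had a median of 0.68 over 12 expressed of 14 members, and 2 were 2-fold higher or more and 0 as much lower. The share higher, 16.7%, stood nearer to the 10.6% of all expressed genes than to the 43.9% of the expressed members. SMARCAD1, an ATPase that remodels nucleosomes, was at 62.6 and 228 (1.85). The homeobox gene NKX6-1 had 76 and 304 reads (1.07). POLR2B, a core subunit of RNA polymerase II, was at 265 and 436 (0.72), and REST, which represses neuronal genes, at 28.7 and 40.5 (0.48). CENPC1, an inner kinetochore protein now named CENPC, went the other way at 8.25 and 6.80 (-0.25). Most of this list thus stood between equal and 2-fold higher.

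Nucleotide and one-carbon enzymes had 6 of 6 members above 0, beside 91.8% of all expressed members. Their median was 0.68, with 2 2-fold higher or more and 0 as much lower. NUDT9, which cleaves ADP-ribose, was at 23.7 and 65.6 (1.43) and ENOPH1, of the methionine salvage pathway, at 37.0 and 80.9 (1.11). The purine synthesis genes PPAT (0.77, from 28.6 to 49.4) and PAICS (0.53, from 421 to 610) had smaller log2 ratios. DCK, the deoxycytidine kinase that activates nucleoside drugs, was at 38.0 and 47.6 (0.32).

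Cell cycle, centrosome and genome upkeep genes had a median of 1.02 over 7 members, with 4 2-fold higher or more and 0 as much lower. FAM175A, the Abraxas scaffold of a BRCA1 complex, had 2137 and 6575 reads (1.61). CCNI, cyclin I, was at 330 and 778 (1.24) and the DNA helicase gene HELQ at 5.99 and 15.2 (1.21). CCNG2, cyclin G2, which follows CCNI in the table, was at 71.3 and 72.7 (0.03), and the interval of its plain ratio, 0.992 to 1.05, includes 1. Neighbouring genes could therefore differ by more than 1 log2 unit.

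Among the 4 ubiquitin pathway genes, HERC3, a ligase of the HECT type, was at 19.7 and 76.9 (1.91) and RCHY1, a ligase for p53, at 34.4 and 82.7 (1.24). KLHL8, a substrate adaptor, had a log2 ratio of 0.95 and UBA6, a ubiquitin-activating enzyme, one of 0.08. HERC3 had 2819 and 10584 reads, beside 4 and 566 in NAP1L5, which it overlaps.

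Lipid and steroid enzymes had 7 of 9 members expressed, with a median of 0.97, 3 of them 2-fold higher or more and 0 as much lower. AGPAT9, a glycerol-3-phosphate acyltransferase now named GPAT3, was at 24.7 and 51.2 (1.03), and HSD17B11, a hydroxysteroid dehydrogenase, at 20.3 and 40.6 (0.97). The rows listed as PIGY (1.44) and RP11-466G12.4 (1.50) overlap on the same strand, and GENCODE names them PYURF and PIGY, so they may not be independent. CDS1, a synthase of CDP-diacylglycerol, went the other way, at 34.1 and 17.3 (-0.94), a ratio of 0.507 (0.483 to 0.533).

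Cytoskeleton, adhesion and membrane genes had the lowest median among lists with more than 2 expressed members, 0.37 over 9 expressed of 10. SEPT11, a septin, was at 178 and 390 (1.13), and ADAMTS3, a procollagen protease, had 32 and 277 reads (1.30). ANXA3, an annexin, was at 319 and 326 (0.03), FRAS1, a basement membrane protein, at 30.7 and 33.5 (0.12) and SHROOM3, which shapes the apical side of epithelial cells, at 100.01 and 130 (0.37). PDLIM5, a cytoskeletal adaptor, was at 359 and 314 (-0.19). PARM1, a mucin-like membrane protein, was at 1.69 and 0.334 (-1.01), from 241 and 46 reads. FRAS1, the least read of ANXA3, FRAS1, SHROOM3 and PDLIM5, had 4393 and 4608 reads, so the small log2 ratios of these genes did not rest on few reads.

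**Figure D4:**
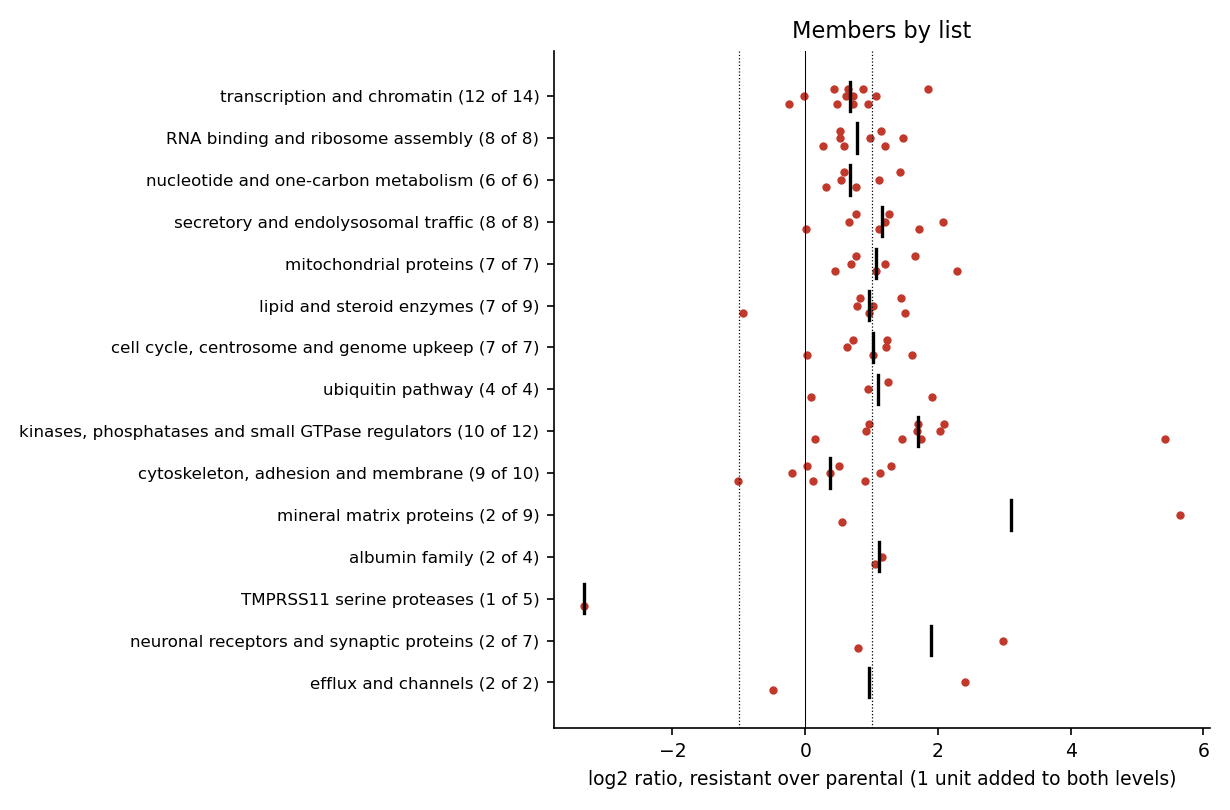
Each red point is an expressed member, placed by its log2 ratio (horizontal axis) in the row of its list, with the number expressed of the number in the table; black bars are medians and dotted lines mark 2-fold. The median is above 0 in each list but the TMPRSS11 proteases, whose only expressed member, TMPRSS11E, stands at -3.34; vertical offsets within a row carry no meaning.

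In 8 of 98 expressed members the level was lower in the resistant library on the log2 scale. TMPRSS11E, a membrane serine protease of squamous epithelia, had the lowest log2 ratio (-3.34). It had 1300 and 0 reads, which is 417-fold lower against the floor of 3 reads, with a counting interval from 339-fold. Its paralog TMPRSS11D had 21 and 0 reads, and TMPRSS11A, TMPRSS11B and TMPRSS11F were below the minimum. ABCG2, a drug efflux pump, had 359 and 209 reads (-0.48), a ratio of 0.604 (0.507 to 0.719). FAM190A, now CCSER1, was at 6.54 and 5.99 (-0.11), and the interval of its plain ratio, 0.834 to 1.01, includes 1. The other 5 were PARM1, CDS1, CENPC1, PDLIM5 and PRDM8. For PRDM8 the interval of the plain ratio, 0.904 to 1.08, also includes 1. Its log2 ratio was 0.018 with centring on the median of all expressed genes and 0.046 with upper quartile scaling.

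The remaining 57 members did not reach a level of 1 in either library, and 27 of them had 0 reads in both. No member of the milk and saliva list was expressed, and 11 of its 12 genes had 0 reads in both libraries. PF4, PF4V1 and PPBP, the platelet chemokines, were not expressed. Of the 57, 20 had at least 10 reads in all, 12 with the higher level in the resistant and 8 in the parental library. The like split over all genes under the minimum was not counted, so nothing is drawn from it. MMRN1, a platelet and endothelial protein, had 93 parental and 0 resistant reads, at least 29.9-fold lower. HPGDS, a prostaglandin D synthase, had 23 and 0 reads. In the albumin family 2 of 4 genes passed the minimum, both through the resistant library. ALB, albumin, had 20 and 214 reads and AFP, alpha-fetoprotein, 0 and 148, at least 51.2-fold higher, while GC, the vitamin D-binding protein, had 0 and 35 reads.

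Members whose starts lie back to back in GENCODE had similar ratios. GENCODE places the starts of 9 such pairs within 1000 bases of each other, on opposite strands and pointing apart, and both genes were expressed in 8 pairs. The RefSeq starts did not always lie so. Between them were -25109 bases for PPAT and PAICS and 53983 for FAM13A and TIGD2, where a negative value means that the starts pass each other. SEC31A and THAP9 stood at -482 bases from start to start in GENCODE and had 165 between the RefSeq starts. All 16 genes of these pairs were above 0, beside 91.8% of all expressed members, so this count sets the pairs little apart. The log2 ratios of the 2 genes of a pair differed by 0.02 to 0.58, with a median of 0.19. Over the 97 steps between adjacent expressed members the median difference was 0.52. Those steps include genes of few reads, SPP1, FGF5 and steps within pairs, so the 2 medians are not a matched comparison. HELQ and MRPS18C, whose shared stretch is printed above, stood at 1.21 and 1.20. G3BP2 and USO1, a vesicle tethering protein, stood at 1.20 and 1.12. SEC31A and THAP9 stood at 0.76 and 0.87 although their levels were 1151 and 3.51 in the parental library. The widest gap was that of HNRPDL (0.53) and ENOPH1 (1.11). Reads from overlapping ends of SEC31A and THAP9, RCHY1 and THAP6, and WDFY3 and WDFY3-AS2 cannot be told apart without strand, and no test was made.

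**Figure D5:**
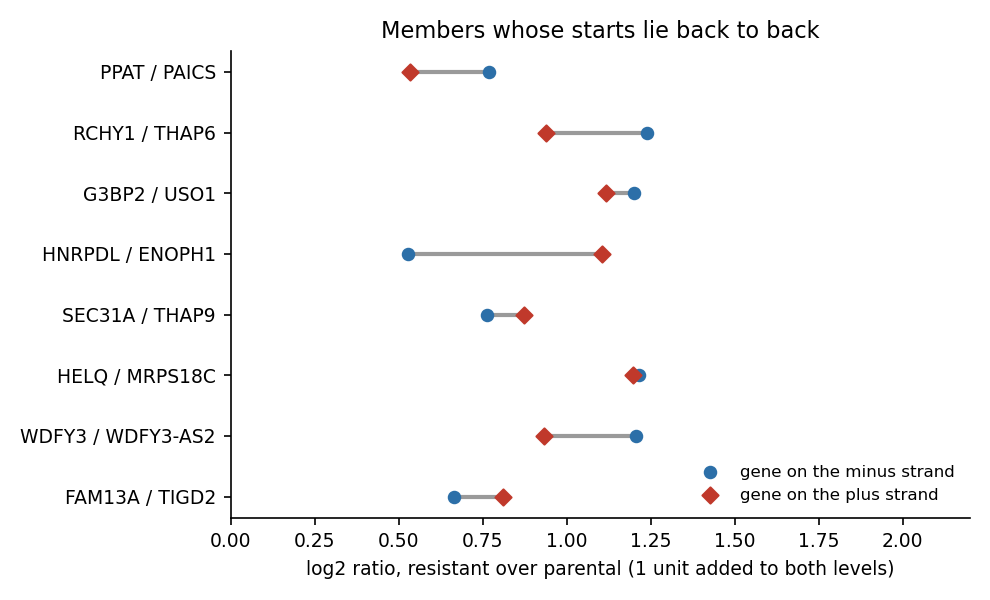
For each of the 8 pairs of expressed members with starts back to back in GENCODE, the log2 ratio (horizontal axis) of the gene on the minus strand (blue circle) and on the plus strand (red diamond) is joined by a grey bar. The bar is shortest for HELQ and MRPS18C and longest for HNRPDL and ENOPH1.

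RefSeq promoter windows, 250 bases before to 50 after the start, matched 135 of the 155 members and 88 of the 98 expressed ones. The expressed members had a median of 24 CG dinucleotides per window, the 47 matched members that were not expressed 3, and all 35116 windows 14. The 35 matched members at least 2-fold higher and the 53 other expressed ones both had a median of 24. The GC box GGGCGG, read on either strand, was found in 53 of 88 windows of expressed members (60.2%), in 6 of 47 of the others (12.8%) and in 45.0% of all windows. The AP-1 motif TGANTCA, bound by JUN and FOS dimers, was found in 5 of 88 windows of expressed members (5.68%) and 7 of 47 of the others (14.9%), beside 7.71% of all. TATAAA was found in 8 of 88 (9.09%) and 11 of 47 (23.4%), beside 11.5% of all. CCAAT was found in 28.4% of expressed members and 34.6% of all windows, and CCGGAA, an ETS core, in 19.3% and 17.2%. A match here describes the letters in these windows and not a bound site. The windows of expressed and unexpressed members thus differed in CG content and GC boxes, while the median CG content was equal in members above and below 2-fold.

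The 32 genes left out by the rule lie among the members. Of these 17 were expressed. Their median was 0.37, with 7 at least 2-fold higher and 6 as much lower, beside 10.6% and 9.68% of all expressed genes. IGFBP7 was at 2.65 and 407 (6.80), a higher log2 ratio than that of any member. SLC4A4 was at 0.959 and 90.5 (5.55), while CXCL1 was at 127 and 2.25 (-5.30), lower than any member. CXCL5 was at 1929 and 287 (-2.74), within a stretch where RASSF6 and MTHFD2L, a mitochondrial folate enzyme at 12.1 and 18.8 (0.59), were higher.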

How the data were processed

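Per the labels' protocols, polyadenylated RNA of 2 libraries, 1 per line, was sequenced on an Illumina HiSeq. The submitters' processing notes name TopHat. For its version, the build, the counter and the strand setting, the sources used here give nothing. The deposited values are log2 levels, and the file's name calls them RPKM. Back-transformed, they were whole multiples of 1 step per library (0.00700 parental, 0.00727 resistant), the same for every gene, in 100% of 17090 and 17049 genes with up to 100000 reads, within 0.1 read. They are thus reads times a factor, not divided by length. Genes at the lowest value (3504 and 3573), which stood at 0.9 reads, were taken as 0 reads. The column ending in Prim was read as parental.

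Levels were compared as log2((resistant + 1)/(parental + 1)). Count-based tools were not used, since 1 library per group allows no test. Intervals are exact Clopper-Pearson (scipy 1.17.1, Python 3.11.15); no molecular identifiers are named, so reads are not taken as independent molecules. Fold counts and intervals were also run on simulated data with counting noise only. Such data hold no spread between cultures, so they cannot show whether a fold would recur. Positions, names and exon lengths came by Ensembl identifier from GENCODE 29, which held 20162 of 20985 genes, and sequences from RefSeq (GRCh38.p14). Of the rows between CEP135 and PDHA2, 2 had no position and are not members.

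Named members were the 15 highest and 8 lowest log2 ratios, the 8 highest levels, up to 4 per list and the edges. The members, the 17 lists and the pairs were chosen with earlier results of these data known. EXOC1, listed, lies outside. SRP72, REST, POLR2B, DCK, CCNG2, ANXA3, FRAS1, SHROOM3, ANTXR2, ARHGAP24, HNRPDL, USO1, WDFY3-AS2, CXCL5, EPHA5, C4orf22 and the members under the minimum were named after their values were seen. Members in a list numbered 127; of the other 28, 11 were expressed. Alternatives were the pseudocount, the minimum level, the scaling, the left-out genes and plain ratios. Single values of some genes are not reported here.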

Additional observations from a re-analysis of the deposited data

How the results depend on the processing

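The median log2 ratio of the members stayed above 0 under every alternative run. It was 1.04 with a pseudocount of 0.1, 0.63 with a pseudocount of 5, 0.52 without a minimum level, 0.99 with upper quartile scaling and 1.05 as a plain ratio over genes whose reads reached 10 in each library. The count at least 2-fold higher stayed within 1.5 times its value, from 30 with a pseudocount of 5 to 55 as plain ratios. The count at least 2-fold lower, 2, was 1 with a pseudocount of 5, with a minimum level of 5, with centring on the median of all expressed genes and with upper quartile scaling. It was 8 with the left-out genes added back and 0 without members under a mean of 1000 reads, a setting chosen after seeing the data, as were those without SPP1 (median 0.92) and without members overlapping on opposite strands (median 0.91, with 33 at least 2-fold higher). Of 317 recomputed values of 64 named members, 124 moved beyond their counting interval and 0 that were past 2-fold changed direction. At any size 2 values changed sign, both of PRDM8. No paired analysis was possible because each group holds 1 library. Depth limits members with under 1000 reads most, and spread between cultures is unknown.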

Other observations

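The expressed members on the plus strand (51) and on the minus strand (47) had median log2 ratios of 0.92 and 0.95. The quartiles lay 1.13 apart on the plus and 0.68 on the minus strand, and 8 and 3 members were at least 4-fold higher. The 49 members with shorter exons had a median of 0.98 and the 49 with longer exons one of 0.76. Among the 11 expressed members in no list, WDFY3-AS1 had 107 and 230 reads and FAM13A-AS1 359 and 685, each overlapping a host gene on the opposite strand, so that their reads cannot be told apart from those of WDFY3 and FAM13A without strand. FAM47E, a neighbour of STBD1 on the same strand, was at 11.5 (parental) and 39.3 (resistant), a log2 ratio of 1.69, and STBD1 had one of 1.72. FAM47E overlaps SCARB2 on the opposite strand, so the same limit holds for reads from the overlap. SCARB2 had 24726 and 57382 reads beside 1646 and 5406 in FAM47E.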
